A study of Rattus norvegicus with 12 samples.

Results

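CD4+ T cells reactive to β-synuclein were compared in blood between 2 genotypes, in 3 transgenic and 3 wild-type libraries, which are 6 of the 12 libraries of the study. The members were taken from the labels alone, as every library with the tissue given as blood. All 6 came from LEW/Crl (Lewis) rat cells that were transferred intravenously and sorted from blood 3 days later. The transgenic cells are labelled b-syn TCR Tg, for a transgenic T cell receptor that recognises β-synuclein, and the other cells are labelled wt. The other 6 libraries, of transgenic cells from meninges and brain parenchyma, enter no result below except 1 alternative fit. The promoter of the transgene, the way in which the wild-type cells were made reactive, the age of the animals and any pooling are not stated in the labels. Whether the replicates of a group are separate animals is not stated either, so the p-values below reflect only how these samples scatter, which could be technical scatter.

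The T cell receptor is assembled anew in each developing T cell by joining gene segments, so that a normal repertoire holds very many receptors, whereas T cells of a receptor transgenic animal largely share 1 receptor. CD4+ T cells recognise peptides bound to MHC class II molecules, and a cell primed against a brain protein can travel in the blood before it enters nervous tissue. β-Synuclein is a protein of neuronal synapses. Blood is the single tissue sampled from both genotypes here.

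Genes are listed by Ensembl rat identifiers, and 0 lines of the reference tables at hand held such an identifier, so no gene is named and no promoter or protein is shown. Markers of CD4+ T cells and of other blood cells could therefore not be checked against the labels. Genes are grouped below by direction, size of change and level.

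Library totals lay between 29959282 and 38601400 counts in wild-type cells and between 16848739 and 21229957 in transgenic cells, so depth differed between the genotypes without overlap. Genes with at least 1 count numbered 15539 ± 151 in wild-type and 14710 ± 273 in transgenic libraries (SD, n = 3; p = 0.1 in an exact two-sided permutation test, the smallest that 3 against 3 libraries allow). At the depth of the shallowest library the expected numbers were 14608 ± 160 and 14512 ± 141, and the ranges overlapped (exact permutation p = 0.400). No pair of libraries of a genotype agreed within sampling noise, with a chi-square per degree of freedom of at least 32.3. The labels' protocols name 2 library kits but do not assign them to libraries, so a difference in kit between the genotypes cannot be told apart from genotype if there was one.

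Transgenic and wild-type cells in blood differed in a large part of the genes tested. Of 11618 genes, 3002 (25.8%) passed an adjusted p of 0.05 in edgeR's quasi-likelihood test, 1518 (13.1%) higher and 1484 (12.8%) lower in transgenic cells. The median change of the called genes was 1.85-fold in either direction, beside 1.25-fold over all genes tested. Most changes were small: 314 of the higher genes and 302 of the lower ones changed by up to 1.5-fold, and a further 518 and 570 by 1.5- to 2-fold. Changes over 2-fold were called in 686 genes higher and 612 lower in transgenic cells, which is 11.2% of the genes tested. The genotypes did not overlap in any library in 44.5% of genes tested, 22.3% with all transgenic libraries above and 22.2% with all below. At an unadjusted p under 0.05 there were 4647 genes (40%). Of the called genes, 2966 were free of overlap and 36 were not. Both measures use the same values, so their agreement is no separate support. Another 2199 genes did not overlap but missed the threshold, with a median change of 1.28-fold.

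**Figure D1:**
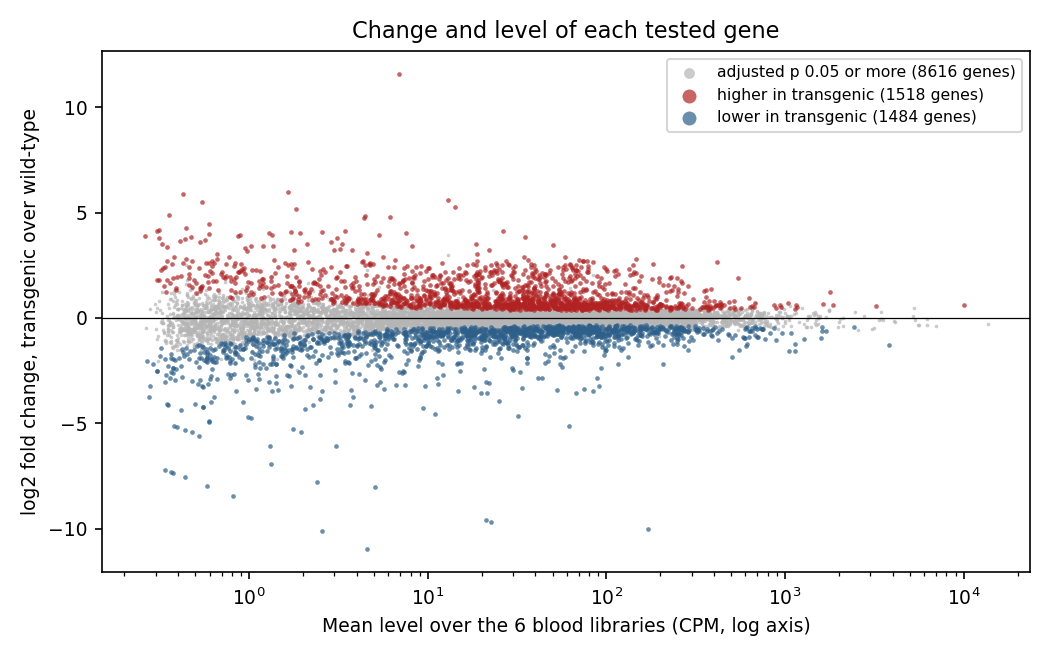
Each point is 1 of the 11618 tested genes, with its mean level over the 6 blood libraries in CPM (counts scaled to library size, log axis) against its log2 fold change of transgenic over wild-type cells. The 1518 genes called higher are red, the 1484 called lower are blue, and genes with an adjusted p of 0.05 or more are grey. For genes with no count in 1 genotype the fitted change depends on the model and is not a measured size.

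The directions were balanced in number but not in level. Levels are given in CPM, counts scaled to the TMM-adjusted total of the tested genes, so that 1 CPM stood for 16.6 to 37.7 counts per library. CPM is not corrected for gene length, so the bands below order genes by counts and not by numbers of transcripts. Among genes with a mean of 10 CPM or more over the 6 libraries, 384 were called over 2-fold higher in transgenic cells and 211 over 2-fold lower. Below 10 CPM the order was turned, with 302 higher and 401 lower. From 10 to 100 CPM, the band with 5709 of the tested genes, 326 were higher and 170 lower. At 100 to 1000 CPM there were 57 and 37, and at 1000 CPM or more 1 and 4. At 1 to 10 CPM there were 202 higher and 261 lower, and under 1 CPM 100 and 140. The bands hold unequal numbers of tested genes, so these counts compare directions within a band and not bands. Both directions together, changes over 2-fold were called in 22.3% of 1078 genes tested under 1 CPM and 18.8% of 2458 at 1 to 10. The share was 8.69% of 5709 at 10 to 100, 4.10% of 2290 at 100 to 1000 and 6.02% of 83 at 1000 CPM or more.

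More higher than lower genes over 2-fold at 10 CPM or more were found in all 15 refitted settings, at ratios from 1.48 to 2.10. More lower than higher genes under 10 CPM were found in all 14 settings that keep such genes. With all libraries thinned to the shallowest total, a setting chosen after seeing the data, the counts were 381 higher and 217 lower at 10 CPM or more and 268 and 336 below. These settings reuse the same blood libraries, so their agreement is no separate check, and the difference between the directions was not tested.

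**Figure D2:**
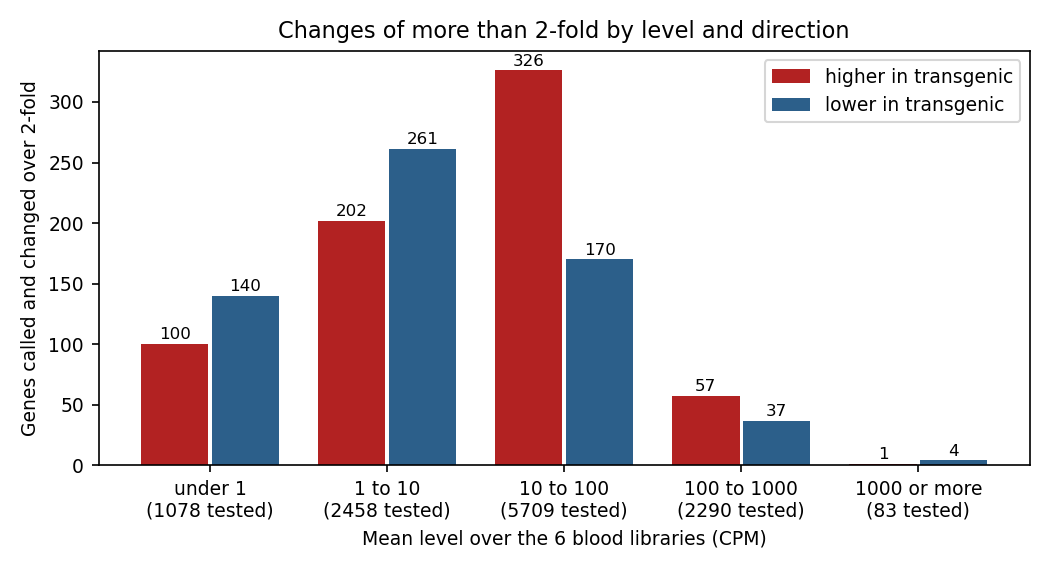
Bars count the genes called and changed over 2-fold, higher (red) or lower (blue) in transgenic cells, in 5 bands of mean CPM over the 6 blood libraries. Lower genes outnumber higher ones under 10 CPM, and higher genes outnumber lower ones from 10 to 1000 CPM. The widest gap in number is at 10 to 100 CPM (326 against 170), the band with the most tested genes (5709). Bars are counts and not shares of the genes tested in a band.

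The share of genes called changed less with level than the size of the changes. It was 22.5% under 1 CPM, 29.0% at 1 to 10, 26.9% at 10 to 100, 21.5% at 100 to 1000 and 24.1% at 1000 CPM or more. Over the same bands, the median change of called genes went from 4.13-fold through 2.34-, 1.69- and 1.55-fold to 1.56-fold. Over all genes tested the median change was 1.60-, 1.41-, 1.21-, 1.17- and 1.23-fold in the same bands. The spread between replicates was alike in the 2 genotypes, with a median SD of log2(CPM + 0.5) of 0.182 in wild-type and 0.183 in transgenic cells. It was larger at low level, at 0.223 and 0.243 under 1 CPM, against 0.163 and 0.155 at 100 to 1000 CPM. Under 1 CPM, 240 of the 243 called genes changed over 2-fold, so smaller changes were rarely called there. How far scatter and the threshold account for the larger changes at low level was not tested.

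Genes called higher in transgenic cells held 16.3%, 13.5% and 13.5% of the counts of transgenic replicates 1, 2 and 3, and 8.27%, 7.33% and 8.79% of those of wild-type replicates 1, 2 and 3. Genes called lower held 7.63%, 9.35% and 8.24% in the transgenic and 13.5%, 15.7% and 13.8% in the wild-type libraries. The genotypes did not overlap in either share, which follows from the choice of these genes. Transgenic replicate 1 and wild-type replicate 2 stood farthest from the other genotype in both shares. Most of the moved counts came from modest changes: genes higher by 1.5- to 2-fold alone held 5.96% ± 0.588 of transgenic and 3.67% ± 0.292 of wild-type counts (SD, n = 3). Genes over 8-fold higher held 0.0562% ± 0.00803 of transgenic counts.

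A group of 192 genes that were 4- to 8-fold higher in transgenic cells differed in level from its counterpart. Its members had a median of 30.3 CPM in transgenic cells, against 6.17 CPM in wild-type ones. The 104 genes lower by 4- to 8-fold had a median of 0.527 CPM in transgenic cells, against 2.86 CPM in wild-type ones. In wild-type replicates 1, 2 and 3, the median of the 192 genes was 5.02, 4.33 and 7.90 CPM, and in transgenic replicates 1, 2 and 3 it was 36.1, 26.0 and 24.4 CPM. The medians of the genotypes did not overlap, and in each genotype 1 library stood above the others. Wild-type replicate 3 was the highest of its group in 77.6% of the 192 genes, and transgenic replicate 1 in 76.0%. The 437 genes that were 2- to 4-fold higher had the same libraries on top, with wild-type replicate 3 highest in 62.5% and transgenic replicate 1 in 79.6%. Transgenic replicate 1 was also highest in 65.0% of genes higher by up to 1.5-fold and 66.0% at 1.5- to 2-fold, but in 31.6% over 8-fold. In these same sets, wild-type replicate 3 was highest in 32.8%, 34.7% and 26.3%. In the genes lower by 2- to 4-fold, wild-type replicate 2 was highest in 63.1% and transgenic replicate 2 in 53.9%. The genes were sorted by their fold change in these libraries, so these levels are a description. No gene names are at hand to say what the 192 genes do.

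**Figure D3:**
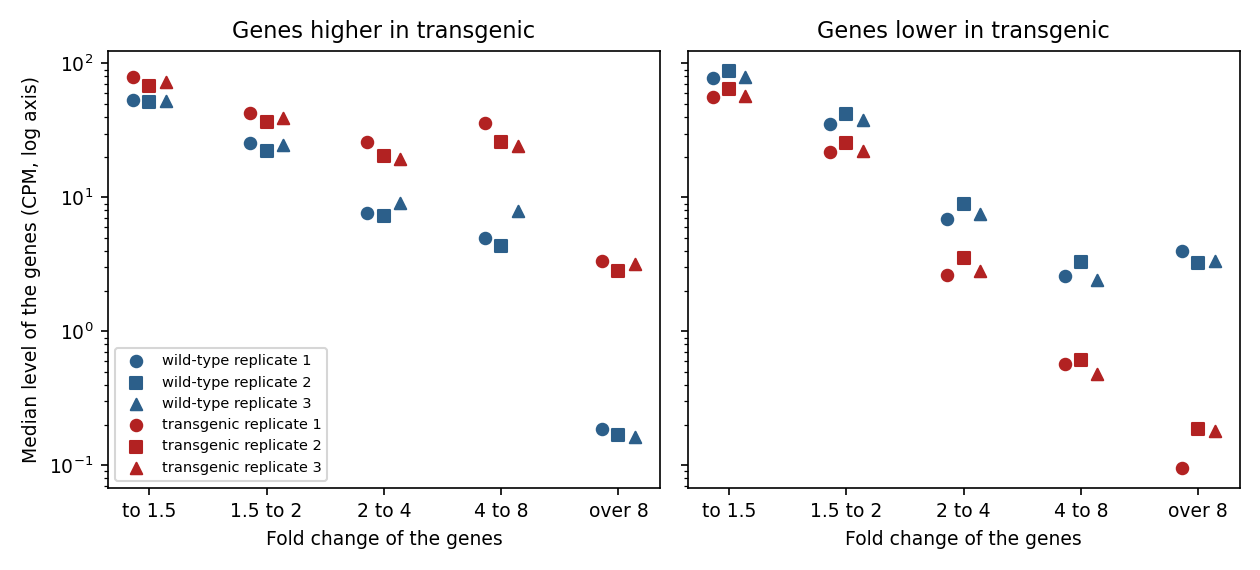
Median level in CPM (log axis) of the called genes in each blood library, by size of fold change, for genes higher (left) and lower (right) in transgenic cells. Symbols are single libraries, blue for wild-type and red for transgenic. In the genes 4- to 8-fold higher, wild-type replicate 3 (7.90 CPM) lies above wild-type replicates 1 and 2, and transgenic replicate 1 (36.1 CPM) above the other transgenic libraries.

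Changes of more than 8-fold were called in 57 genes higher and 85 lower in transgenic cells, and most were in genes of low level. In 50 of the 57 and 64 of the 85, the lower genotype averaged under 1 CPM. At least 10 CPM in the higher genotype was reached by 12 and 26 of them. The number of genes over 8-fold higher rose to 110 without wild-type replicate 3, and was 62 to 78 when another library was left out. The number lower stayed between 81 and 116 when any 1 library was left out. All 57 and all 85 kept a ratio over 8-fold when the lower genotype was set to at least 3 counts over its libraries. The filter on low counts and the small floor made this nearly certain in advance, so it is no separate check.

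Single genes are shown for the largest changes in each direction at 20 CPM or more in the higher genotype. ENSRNOG00000048468 stood at 405, 326 and 291 CPM in wild-type replicates 1, 2 and 3 and at 0.287, 0.282 and 0.422 CPM in transgenic replicates 1, 2 and 3. It was thus well expressed in each wild-type library and nearly absent from each transgenic one, with 6, 6 and 7 counts. Its log2 fold change was -10.02 (SE 0.25, edgeR adjusted p = 4.66e-08), and pooled counts differed 1065-fold (exact binomial 95% interval 682 to 1770, counting error only).

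ENSRNOG00000049577 had 56.1, 41.0 and 38.1 CPM in wild-type replicates 1, 2 and 3, and 1, 2 and 0 counts in transgenic replicates 1, 2 and 3. The pooled ratio was 894-fold with an interval of 306 to 4335 (edgeR adjusted p = 1.01e-06). ENSRNOG00000057643 showed the opposite direction, with 22.0, 21.3 and 32.6 CPM in transgenic replicates 1, 2 and 3 and 0.742, 0.503 and 0.292 CPM in wild-type replicates 1, 2 and 3. All transgenic libraries lay above all wild-type ones, the log2 fold change was 5.59 (SE 0.32, edgeR adjusted p = 7.04e-06), and the pooled ratio was 46.9-fold (35.8 to 62.6). The next gene by this rule in that direction had 27.8 ± 5.88 CPM in transgenic cells, against 0.706 ± 0.339 CPM in wild-type ones (log2 fold change 5.27, SE 0.32).

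Genes present in 1 genotype and nearly absent from the other were few at 5 CPM or more and included more genes of lower level. ENSRNOG00000012906, printed after its values were seen, had 277, 327 and 213 counts in transgenic replicates 1, 2 and 3 (13.2, 15.3 and 12.8 CPM) and 0 counts in each wild-type library. With 3 counts over the wild-type group taken as the floor, its pooled ratio was 483-fold (edgeR adjusted p = 5.70e-06). The exact binomial 95% interval of its pooled ratio, which covers counting error only, began at 392-fold. It was the 1 gene with a mean of 5 CPM or more in transgenic cells and at most 3 counts in every wild-type library, and 6 genes met the same limits in the other direction. Without that minimum level, 7 genes over 8-fold higher and 29 over 8-fold lower had at most 3 counts over all libraries of the lower genotype, and 1 and 8 had none. The transgenic libraries were the shallower ones, where 3 counts is a looser limit. With at most 0.1 CPM in every library of the lower genotype, the numbers were 1 and 3. With under 1 CPM in every library of the lower genotype and at least 5 CPM in every library of the other, they were 7 and 8.

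**Figure D4:**
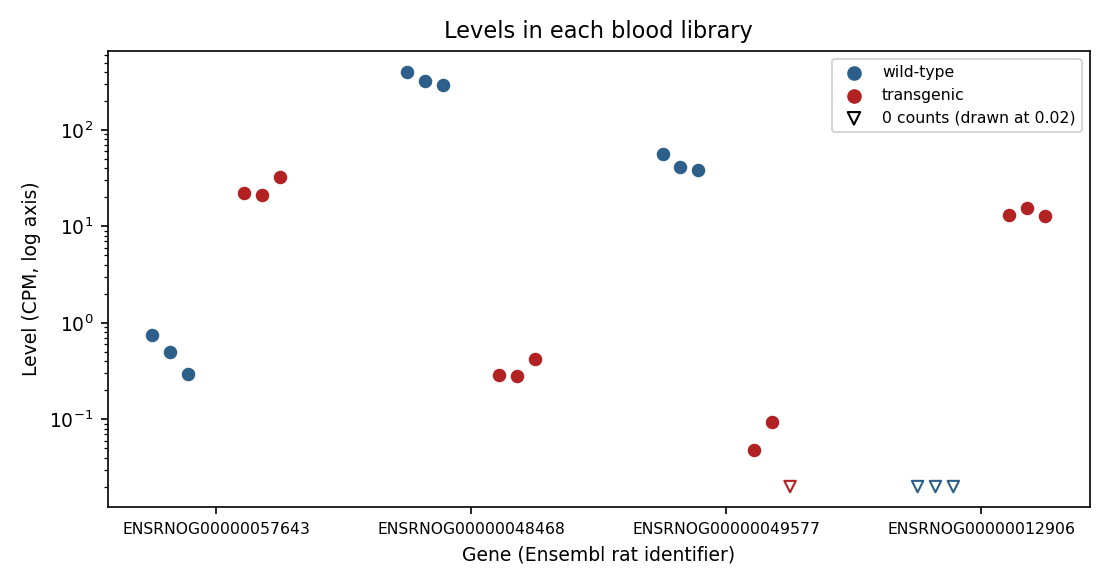
Level in CPM (log axis) of 4 genes in each wild-type (blue) and transgenic (red) blood library, with open triangles for 0 counts. The genotypes do not overlap in any of the 4 genes, and ENSRNOG00000012906 has 0 counts in all 3 wild-type libraries.

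The genes with the most counts were largely common to both genotypes. Of the 20 genes with the highest mean CPM in each genotype, 17 were shared, and of the top 100 in each, 82. The 118 genes in either top 100 held 30 called genes (25.4%, near the 25.8% over all genes tested), 13 higher and 17 lower, of which 6 changed over 2-fold. The 100 genes with the most counts in a library took 22.3% ± 1.34 of the counts in wild-type and 21.2% ± 1.41 in transgenic cells (SD, n = 3), and the ranges overlapped (exact two-sided permutation p = 0.400).

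Pairs of libraries were further apart between genotypes than within them by 2 measures and overlapped by 3 others. The share of tested genes differing over 2-fold on log2(CPM + 0.5) was 1.02% to 1.34% in the 3 wild-type pairs, 0.689% to 1.54% in the 3 transgenic pairs and 7.32% to 17.3% in the 9 pairs between genotypes. The share of counts that would have to be assigned to other genes to turn 1 library into another was 7.46% to 10.3% within wild-type, 6.99% to 8.97% within transgenic and 8.87% to 17.8% between genotypes. The nearest pair between genotypes, at 8.87%, was wild-type replicate 3 and transgenic replicate 2, nearer than wild-type replicates 1 and 2 at 10.3%. Wild-type replicate 2 and transgenic replicate 1 were the farthest pair, at 17.8%. Pearson's r of log2(CPM + 0.5) over genes, which are not independent replicates, was at least 0.987 within and at most 0.974 between genotypes. The median absolute log2 difference overlapped, at 0.183 to 0.261 within and 0.228 to 0.457 between genotypes, and so did the chi-square per degree of freedom, at 32.3 to 96.8 and 66.0 to 241. On the first principal component of the 500 most variable genes, which held 88.4% of their variance, wild-type libraries lay between -30.4 and -19.1 and transgenic ones between 21.8 and 30.6. Those genes were chosen for their variance over the same 6 libraries, which favours genes that differ between the genotypes, so this separation is a description.

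**Figure D5:**
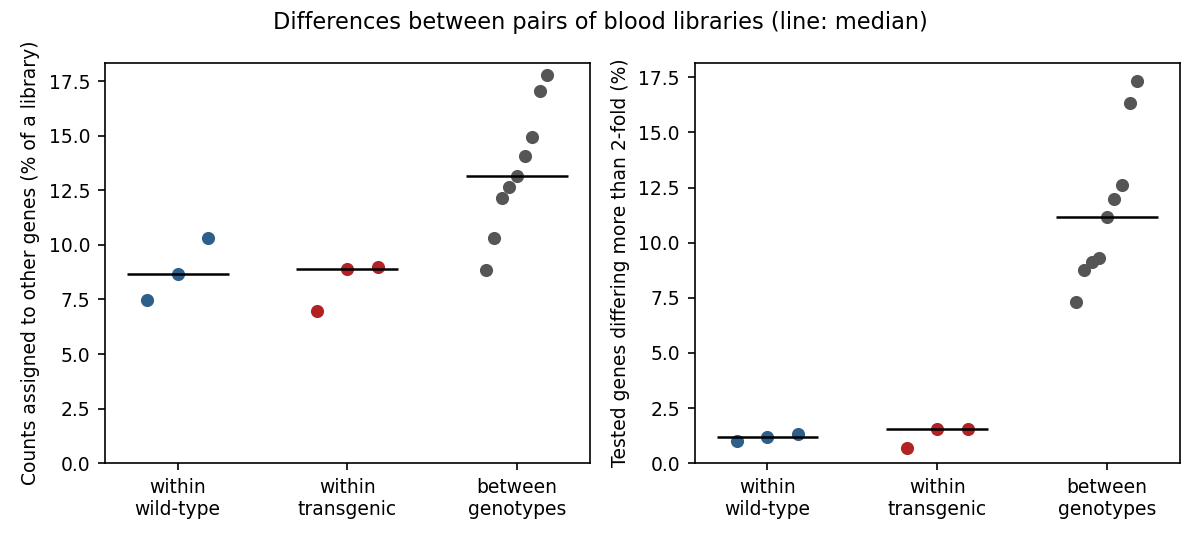
Each point is a pair of blood libraries, within wild-type (blue, 3 pairs), within transgenic (red, 3 pairs) or between genotypes (grey, 9 pairs), with the median as a line. Left, the share of counts assigned to other genes (%), which overlaps between the kinds of pair. Right, the share of tested genes differing over 2-fold (%), at most 1.54% within and at least 7.32% between genotypes.

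The calls were not equally firm. Of the 3002 genes, 1604 were called in the same direction whichever 1 library was left out, 869 higher and 735 lower in transgenic cells, with a median change of 2.42-fold. The other 1398 lost their call without at least 1 library and had a median change of 1.54-fold. Without transgenic replicate 1, 1789 genes were called (953 higher, 836 lower), and without wild-type replicate 2, 2078 were (1126 higher, 952 lower). None of the 3002 genes was called in the opposite direction in any of the 15 refitted settings. All of them reuse the same blood libraries, so this is no separate check of direction. Genes called in the same direction in every refitted setting numbered 1069, 615 higher and 454 lower, and 1 of these settings tests only genes of 10 CPM or more.

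Of the 8616 genes without a call, most were bounded to within 2-fold, but not to within 1.5-fold. The 95% interval of the fold change, not adjusted for the number of genes, lay within 2-fold in both directions for 6998 of them (81.2%) and within 1.5-fold for 4022 (46.7%). The remaining 1618 could differ by 2-fold or more and had a median level of 1.08 CPM, where counts are few. Scatter between replicates also widens an interval, and depth and scatter were not told apart for these genes. The same interval lay wholly beyond 2-fold for 646 genes, 395 higher and 251 lower in transgenic cells. Among called genes it lay within 2-fold for 841, so this bound does not set uncalled genes apart from called ones. For 9 tested genes with no count in 1 genotype no interval was computed.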

How the data were processed

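The authors deposited whole-number counts per gene for each library. Per the submitters' processing notes, the tools included STAR 2.5 and featureCounts 1.5.0-p1, with genome build rn6; DESeq2 1.14.1 is named too. Settings, annotation and strand are not given in these sources, so overlapping, antisense and near-identical genes may share counts. All 32754 rows name a gene.

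Groups and replicate numbers came from the sample titles. Genes were kept by filterByExpr (minimum count 10), scaled by TMM and tested two-sided in edgeR 4.0.16 (R 4.3.3) with the quasi-likelihood F test over the 6 blood libraries, leaving 4 residual degrees of freedom. P-values were adjusted by Benjamini-Hochberg over all 11618 genes, with a threshold of 0.05. The standard error is the unshrunk log2 fold change over the square root of F. The procedure was tested on simulated data. Alternatives used DESeq2 1.42.0, limma-voom 3.58.1, other scalings and filters, a fit over all 12 libraries, a replicate block, omission of each library and thinned counts.

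Identifiers printed are the largest changes among called genes of at least 20 CPM in the higher group without overlap (977 genes higher and 835 lower met this), at most 2 per direction. ENSRNOG00000012906 took the place of the gene second in the higher direction. The gene lists could not be matched to identifiers and were not analysed. The libraries were assigned by their labels alone, but this comparison and the lists were chosen with earlier results of these data known.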

Additional observations from a re-analysis of the deposited data

How the results depend on the processing

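The 3002 calls stayed within 1.5 times in all refitted settings with 6 libraries or more, from 2010 with a mean of at least 10 CPM to 3487 with no filter on low counts; DESeq2 gave 3408, limma-voom 2974, DESeq2 size factors 3000, library totals only 2838, all 12 libraries 2878 and thinned counts 2808. Requiring also a log2 fold change beyond 1 in size left 1298 genes, 686 higher and 612 lower. Leaving out 1 library gave 1789 to 2906 calls, 953 to 1423 higher and 836 to 1483 lower. Lower genes outnumbered higher ones in 6 of 15 refitted settings, and with library totals only the split was 1528 higher and 1310 lower. Genes over 8-fold numbered 117 higher and 139 lower with no filter and 8 and 20 with a mean of at least 10 CPM, which test more and fewer low genes; DESeq2 called 100 over 8-fold higher, and the cause was not tested. Among the printed genes each kept its direction and its call in every setting that tested it, with adjusted p at most 0.000116.

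Both groups are numbered 1 to 3 in the titles. The main fit was planned without pairing, since the labels do not state that the numbers pair libraries. Deviations from the group mean correlated over genes at -0.02, 0.37 and -0.15 for the same number and between -0.38 and 0.38 for different numbers. Deviations from the mean of so few libraries depend on each other, so these values cannot decide whether libraries are paired. With the replicate number as a block, 3126 genes were called, 1540 higher and 1586 lower, and 2798 of them were called in the same direction without it. Only wild-type replicate 2 correlated best with the transgenic library of its own number. The planned counts of gene lists and of other cell types' markers, and their alternatives, were not run, since identifiers could not be matched to symbols. At 1 CPM a library held 16.6 to 37.7 counts, and depth and scatter were not told apart for genes near that level.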
